A study of Mus musculus with 6 samples.

Results

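The 7 genes described here belong to one ubiquitin ligase family and were measured in adult mouse hearts lacking Jmjd2a, the histone demethylase gene now named Kdm4a, and in wild-type hearts. The genes were Klhl21, Klhl9, Klhl13, Klhl24, Klhl31, Cul3 and Rbx1, which are 7 of the 19057 genes named on the array. Klhl21 was chosen by its measured values, a log2 knockout minus wild-type difference that was negative and of similar size in all 3 pairs, so these values are given as a description with no test. The other 6 are partners or relatives of its protein and were taken by name, with all of their probes. RNA of whole hearts was measured on 6 Illumina bead arrays of 1 colour. Knockout arrays were 1 heart with a heart-specific deletion from a female, 1 with it from a male, and 1 with a general deletion and no stated sex. Wild-type arrays were the female control and the male control of the heart-specific line and the control of the general line. Each knockout thus has a control named for it, which gives 3 pairs. The labels do not name the promoter or Cre behind the heart-specific deletion, the strain or the exact age, nor say whether every array came from its own animal. The p-values therefore reflect at most the variation among these 6 arrays, part of which may be technical. The number of arrays limits the precision.

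Cul3 is the scaffold of a family of ubiquitin ligases, enzymes that tag proteins for degradation or relocation. Its one end binds the RING protein Rbx1, which recruits the ubiquitin-charged enzyme, and its other end binds adaptors with a BTB domain. In BTB-Kelch adaptors such as the Klhl proteins, the BTB domain holds Cul3 and the Kelch repeats hold the substrate. Attachment of the small protein Nedd8 to the cullin switches the ligase on, the COP9 signalosome removes it, and Cand1 helps to exchange adaptors. Human KLHL21, KLHL9 and KLHL13 form Cul3 ligases that act on the mitotic kinase Aurora B, and KLHL21 also binds the NF-kB kinase IKK-beta. Human KLHL24 targets keratin 14 in skin and is linked to inherited heart muscle disease, with effects on desmin. Mouse Klhl31 is needed in skeletal muscle, where it acts on filamin C.

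Promoter sequences are shown for Klhl21, whose signal was lower in all knockout hearts, for Klhl9, a partner on the same chromosome whose signals overlapped between genotypes, and for Klhl31, the member with the widest difference between female and male hearts. They are the RefSeq windows of build GRCm38.p6, from 250 bases before the start of the gene to 50 after it, on the strand of the gene. Capitals mark matches on either strand to the motifs searched, which were the GC box GGGCGG, the box of letters CCAAT, the TATA motif TATAAA, the E-box CACGTG, the CRE TGACGTCA, the ETS motif CCGGAAG, and the MEF2, SRF CArG and NF-kB motifs. The Klhl21 window is chr4:152008641-152008940 on the plus strand, the Klhl9 window is chr4:88722459-88722758 on the minus strand, and the Klhl31 window is chr9:77636482-77636781 on the plus strand.
Klhl21: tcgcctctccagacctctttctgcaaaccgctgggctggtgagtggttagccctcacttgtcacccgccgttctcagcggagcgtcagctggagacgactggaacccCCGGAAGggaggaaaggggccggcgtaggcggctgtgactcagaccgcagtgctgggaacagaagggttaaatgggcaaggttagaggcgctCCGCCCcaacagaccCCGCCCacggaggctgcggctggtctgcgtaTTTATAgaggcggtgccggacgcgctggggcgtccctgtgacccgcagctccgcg
Klhl9: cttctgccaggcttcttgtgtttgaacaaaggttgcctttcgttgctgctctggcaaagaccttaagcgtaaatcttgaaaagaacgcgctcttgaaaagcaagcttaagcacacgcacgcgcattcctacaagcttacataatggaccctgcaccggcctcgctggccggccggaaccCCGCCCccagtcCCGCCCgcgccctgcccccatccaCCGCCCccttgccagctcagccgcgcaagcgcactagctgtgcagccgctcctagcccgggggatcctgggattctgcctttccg
Klhl31: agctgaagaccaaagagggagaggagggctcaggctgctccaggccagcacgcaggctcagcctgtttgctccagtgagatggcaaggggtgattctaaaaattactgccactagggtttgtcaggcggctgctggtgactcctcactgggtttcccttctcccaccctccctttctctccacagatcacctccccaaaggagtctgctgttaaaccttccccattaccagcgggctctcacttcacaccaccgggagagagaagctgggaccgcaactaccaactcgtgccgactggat

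The Klhl21 window held 26 CpG dinucleotides with a GC content of 65.3%, against a median of 7 CpG and 52.7% GC over 32851 promoter windows of 300 bases. Of all windows, 83.1% had fewer CpG than that of Klhl21. It held 2 GC boxes on the opposite strand, beginning 51 and 36 bases before the start, the ETS motif 143 bases before it, and TATAAA on the opposite strand 5 bases before it. The Klhl9 window had 22 CpG and 3 GC boxes, and the Cul3 and Rbx1 windows had 29 CpG each, with 3 and 4 GC boxes. Klhl31, with 7 CpG, matched none of these motifs. The 5 windows of Klhl13 had 0 to 16 CpG, and Klhl24 is named only. Among all windows, 35.7% held a GC box, 37.4% CCAAT, 13.6% TATAAA, 7.15% the E-box, 1.79% the CRE, 8.86% the ETS motif, 3.19% the MEF2 motif, 1.63% the CArG box and 0.807% the NF-kB motif. A MEF2 match can contain the TATA motif, no matches overlap in the windows printed here, and a match is a description of the sequence, not of binding.

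Values are the deposited linear intensities, and a difference is the log2 intensity of a knockout array minus that of its wild-type control. The background level of an array, taken from probes of olfactory and other sensory receptor genes, was 121 to 124. Between 18307 and 19658 of 45281 probes were above it on an array, and 11285 genes with a probe above it on at least 2 arrays were tested. The 7 members have 13 probes, all of which were kept, and 12 were above background on all 6 arrays. All 9 measured heart muscle markers were above background on every array, and 0 of 3 markers each of liver, lung and kidney were kept. The 3 Kdm4a probes do not check the genotype, as the brightest was above background on 1 array, with 107, 114 and 102 in the female, male and general knockout, against 119, 123 and 115 in their controls. Over the 3 pairs 0 genes passed limma's test at an adjusted p under 0.05 (0% of the genes tested), while 2.68% had an unadjusted p under 0.05.

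Klhl21 had 1 probe, with an intensity of 619 in the female, 625 in the male and 637 in the general knockout heart, against 1253, 1234 and 1144 in the wild-type hearts. All 3 knockout hearts lay close together, and the lowest wild-type heart was 1.80 times the highest knockout heart. The difference was -1.02 in the female pair, -0.98 in the male pair and -0.84 in the general pair. The mean was -0.95 ± 0.09 (SD, n = 3 pairs), a ratio of 0.519. In this whole-heart RNA fewer cells that express Klhl21 and less Klhl21 RNA per cell cannot be told apart. Red blood cell markers, 4 of 6 kept, also separated the genotypes in their sum, but with the knockouts above the controls. The sum was 44186, 45599 and 48740 in the female, male and general knockout, against 35503, 42437 and 39190 in the controls. The median of the 4 markers' mean differences was -0.19, so the sum and the median differ in sign. The part of these markers in the Klhl21 values was not tested. Knockout hearts averaged 627 ± 9.12 and wild-type hearts 1210.2 ± 58.2 (SD, n = 3 each), coefficients of variation of 1.45% and 4.81%. Of all genes tested, 3.06% had 3 knockout arrays below 3 wild-type arrays and 3.14% had the opposite order, and nothing is read from this for Klhl21, whose values chose it.

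Because Klhl21 was chosen for evenness, its place among the other genes is also a description. Its smallest difference over the pairs was 0.84, and it was the 1 gene of 11285 whose differences had the same sign with none smaller than that. Just outside was Hspb7, which encodes a small heat shock protein of heart muscle, with differences of -3.20, -2.30 and -0.83 in the female, male and general pair. Next came Mrps27, for a mitochondrial ribosomal protein, with 0.60, 0.57 and 0.64. Hspb7 thus differed more between pairs. Mrps27 went in the other direction and was more even, with an SD over the pairs of 0.03 against 0.09 for Klhl21. Altogether 39 genes had a mean difference of -0.5 or below.

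**Figure D1:**
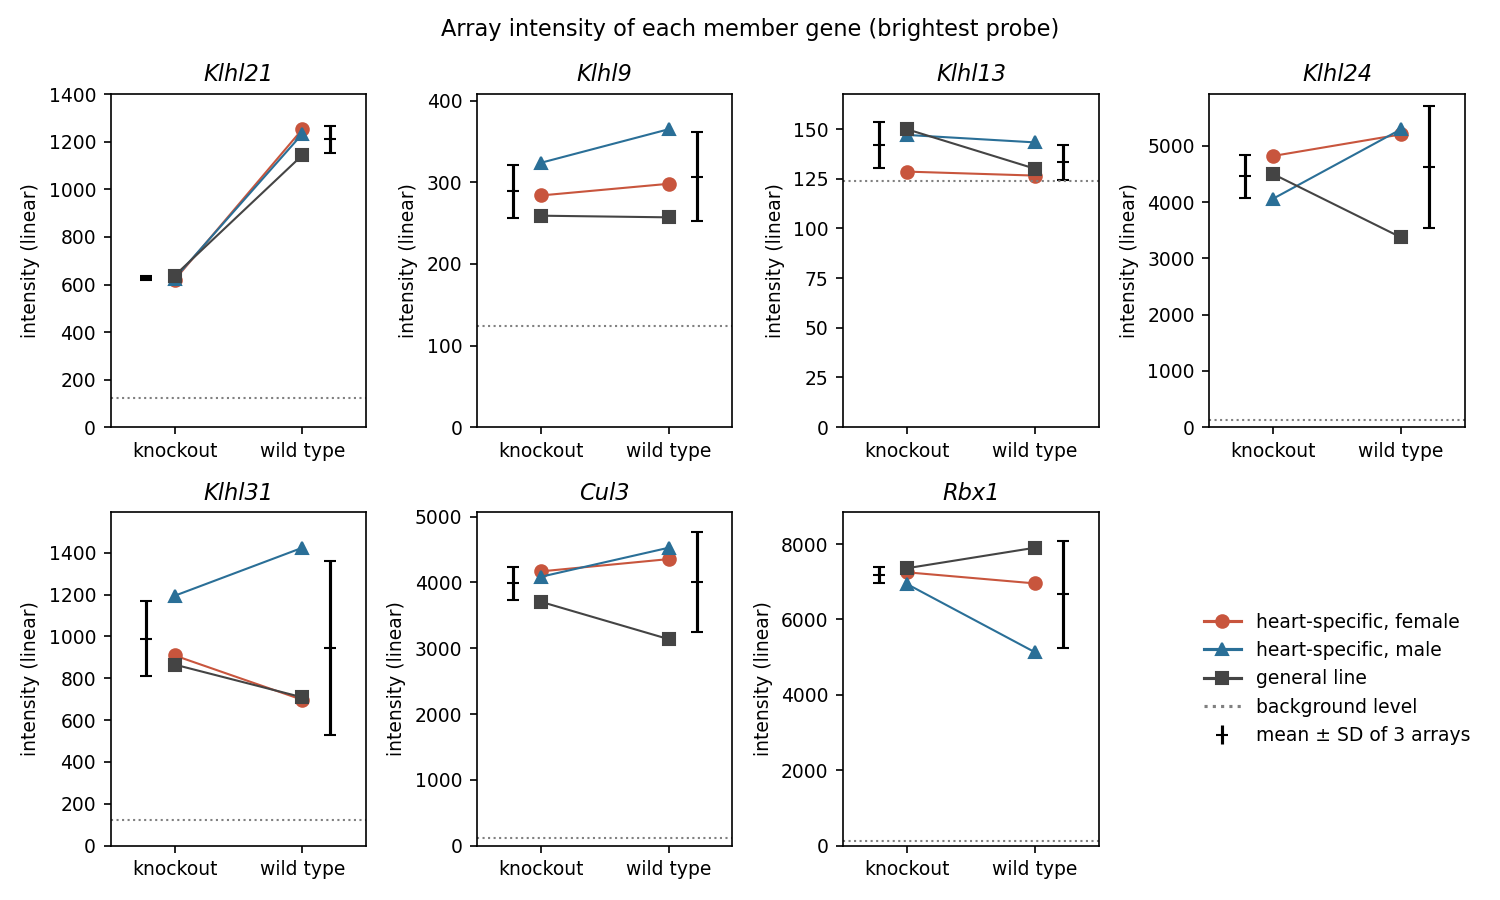
Linear array intensity of the brightest probe of each gene, knockout left and wild type right, with each line joining a knockout to its control and bars giving the mean ± SD of 3 arrays. The scale of each panel starts at 0 and differs between genes, and the dotted line is the highest background level (124). The Klhl21 lines run together from 619 to 637 in knockouts and 1144 to 1253 in wild types, while in the other 6 panels the groups overlap.

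Klhl9 and Klhl13, relatives whose human proteins act on Aurora B as KLHL21 does, overlapped between genotypes. The brighter Klhl9 probe gave 284, 324 and 259 in the female, male and general knockout, against 298, 365 and 257 in the controls. Both males were the highest of their genotype and both hearts of the general line the lowest. The mean difference was -0.077 ± 0.092 (SD, n = 3 pairs), with a 95% interval of -0.32 to 0.16. The other Klhl9 probe gave 311, 302 and 267, against 266, 324 and 302, a mean of -0.017 ± 0.21. It placed the female pair on the other side of 0 (0.23, against -0.071 on the first probe).

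Klhl13 was near background, with 129, 147 and 149.9 in the female, male and general knockout, against 127, 143 and 130.05 in the controls. It was higher in all 3 pairs, by 0.023, 0.037 and 0.20, with a mean of 0.088 ± 0.10 (SD, n = 3 pairs) and an interval of -0.15 to 0.33. The female knockout nevertheless lay below 2 of the wild-type arrays. Of all genes, 11.3% were higher in all 3 pairs and 10.5% lower, and 1 and 0 of the other 6 members were so. Neither gene passed limma's test (adjusted p 0.99976 for both).

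Klhl24, the adaptor known for keratin and desmin, was higher in the knockout of the general pair and lower in that of the male pair on all 3 of its probes, while the female pair differed between probes. Its brightest probe had 4821, 4063 and 4498 in the female, male and general knockout, against 5205, 5296 and 3373 in the controls. The general wild-type heart was the lowest of the 6 and the male wild-type heart the highest. The differences were -0.11, -0.38 and 0.42, which average to -0.026 ± 0.41 (SD, n = 3 pairs), with an interval of -0.40 to 0.34. The second probe gave 680.1, 531 and 500.5, against 548, 788 and 376, and the third gave 469, 408 and 484, against 495, 623 and 353. On both, too, the general wild type was lowest and the male wild type highest. The female pair gave 0.31 on the second probe, on the side of the general pair, against -0.11 and -0.080 on the others.

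Klhl31, the muscle adaptor, had its highest signals in both male hearts on its brighter probe only. That probe had 909, 1194 and 866 in the female, male and general knockout, against 697, 1424 and 709 in the controls. The 2 male hearts stood above the other 4. The differences were 0.38, -0.25 and 0.29, with a mean of 0.14 ± 0.34 (SD, n = 3 pairs) and an interval of -0.20 to 0.48. The dimmer probe, above background on 5 arrays, gave 153, 166 and 149, against 152, 138 and 122, and was higher in all 3 pairs by 0.0095, 0.26 and 0.28. The genotypes overlapped on it as well, and the male wild-type heart was the second lowest.

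The scaffold Cul3 and the RING protein Rbx1 were strongly detected. The brighter Cul3 probe had 4168, 4085 and 3706 in the female, male and general knockout, against 4355, 4527 and 3138 in the controls. The general wild-type heart was again the lowest, and the mean difference was 0.0095 ± 0.20 (SD, n = 3 pairs), with an interval of -0.26 to 0.28. The second Cul3 probe gave 1845, 1682 and 1588, against 1591, 1935 and 1405, with a mean of 0.062 ± 0.23. The Cul3 probes gave the male pair the same sign and the female pair opposite signs.

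Rbx1 had 7251, 6939 and 7359.8 on its brighter probe in the female, male and general knockout, against 6957, 5133 and 7903 in the controls. The male wild-type heart was the lowest here, and the mean difference was 0.13 ± 0.28 (SD, n = 3 pairs), with an interval of -0.17 to 0.43. The second Rbx1 probe gave 1006, 1134 and 1373, against 1154, 1316 and 1201, with a mean of -0.073 ± 0.23. The probes of Rbx1 thus gave means on either side of 0.

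Across the 12 probes of the 6 partner genes, knockout and wild-type arrays overlapped on all 12. Their mean differences ran between -0.078 and 0.18, against -0.95 for Klhl21. Limma's adjusted p was 0.99976 for each of the 6 genes, and in the heart-specific pairs alone it was 0.975 to 0.991, where 0% of all genes passed and 4.47% had an unadjusted p under 0.05. On the brightest probe, the spread of the 3 wild-type arrays was above that of the 3 knockout arrays in every partner but Klhl13. Of all genes, 65.4% had this order. Klhl21 is left out here, as its values chose it. The general wild type was the lowest array on 7 of the 12 partner probes, and the male wild type the highest on 8. Probes of a gene share their transcript, and with the brightest probe of each the counts were 3 and 4 of 6 genes, against 23.1% and 21.1% of all genes.

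**Figure D2:**
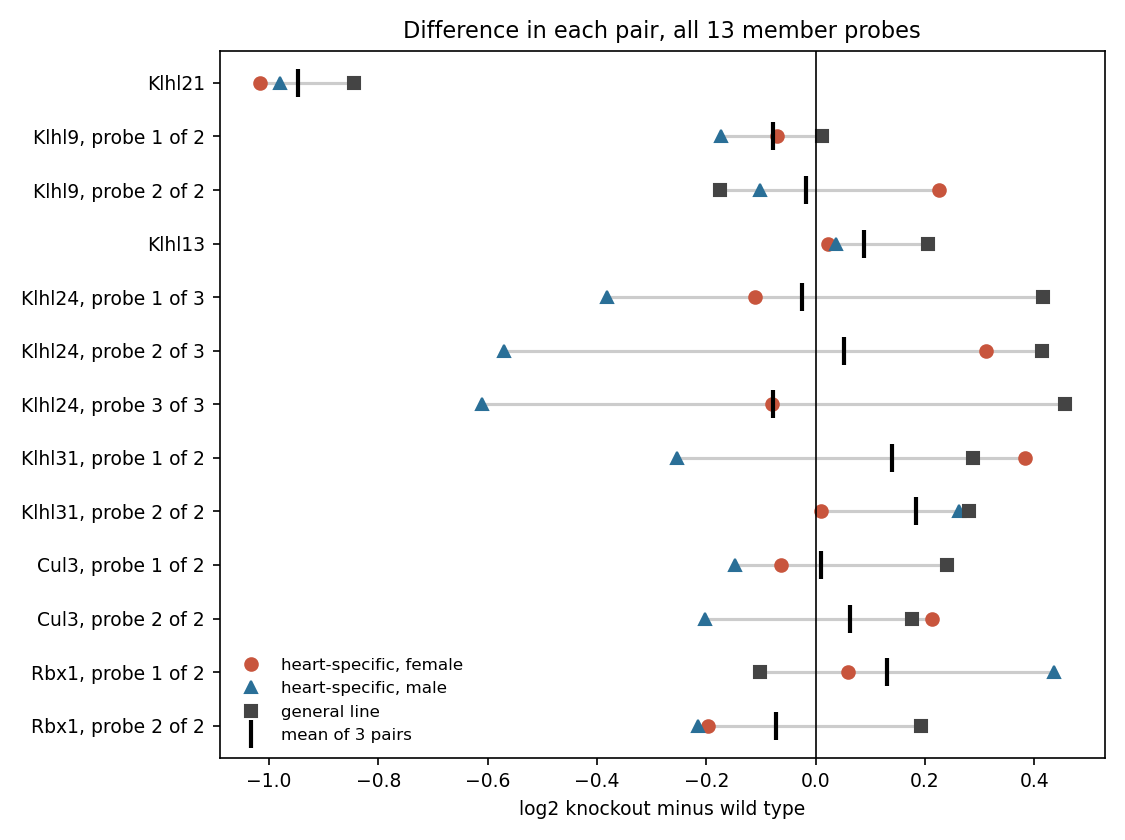
Log2 knockout minus wild type for each of the 13 probes, with a symbol for each pair and a black tick for the mean of 3 pairs. The Klhl21 symbols lie between -1.02 and -0.84, and the partners' means lie between -0.078 and 0.18, with pairs on both sides of 0 on 10 of their 12 probes.

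Whether the knockout difference itself differed between the lines was tested for the partners. Klhl24 gave -0.25 in the heart-specific pairs and 0.42 in the general pair, a difference between lines of -0.66 with a 95% interval of -1.23 to -0.09. The unadjusted p was 0.0285, and limma's adjusted p of 0.709 did not pass. Its other probes gave -0.54 and -0.80. Cul3 gave -0.35 (adjusted p 0.866), with -0.17 on its second probe. Rbx1 gave 0.35 (adjusted p 0.885), but its second probe gave -0.40 and the mean of its probes -0.024, so its direction between lines is not settled. In this comparison 0.0798% of all genes passed and 6.42% had an unadjusted p under 0.05, and 0 and 1 of the 6 partners did. For Klhl21 the difference between lines was -0.15, given without a test.

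The general wild-type heart stood low for Klhl24 and Cul3, but not for Rbx1. Its Klhl24 signal was lower than the mean of the other wild-type hearts by log2 differences of -0.64, -0.81 and -0.65 on the 3 probes. Its Cul3 signal was lower by -0.50 and -0.32. For Rbx1 the difference was 0.40 on the brighter probe, where this heart was the highest of the 6 arrays, and -0.037 on the second. The same heart had the highest summed atrial muscle markers. The sum of the 4 markers was 23011, 26170 and 19540 in the female, male and general knockout, against 12855, 18307 and 42733 in the controls, with 4, 2 and 2 of them above background, against 2, 2 and 4. The median difference of the atrial markers was 0.94, 0.24 and -2.08 in the female, male and general pair. For the red blood cell markers given above it was 0.48, 0.38 and -1.09. Both marker sets thus had opposite signs in the 2 lines. The part of either set in the Klhl24, Cul3 and Rbx1 values was not tested.

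In the 4 hearts of the heart-specific line, females were compared with males, with genotype in the model. Each sex is 1 knockout and control pair, so sex and pair cannot be told apart, and since hearts of a pair deviated together the p-values may be too small and the intervals too narrow. The female minus male difference of Klhl31 was -0.71 (95% interval -1.13 to -0.29), at -0.39 in knockouts and -1.03 in wild types. The unadjusted p was 0.0054, limma's adjusted p was 0.270 and did not pass, and the dimmer probe gave 0.011. Skeletal muscle markers, 3 of 8 kept, summed to 471, 668 and 569 in the female, male and general knockout, against 585, 476 and 510.5 in the controls. Of these markers 2, 2 and 3 were above background in the knockouts, against 3, 1 and 3 in the controls, and their part in the Klhl31 values was not tested. Klhl21 gave 0.0044, with an interval of -0.30 to 0.31 (adjusted p 0.995), and the other members had adjusted p-values between these. Of all genes 0.0532% passed and 11.2% had an unadjusted p under 0.05, and 0 and 1 of the 7 members did.

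The genes most like Klhl21 across the 6 arrays were sought among the 8559 genes above background on every array, by Pearson correlation of log2 intensities. The arrays share their 2 genotypes, so the measure mostly orders genes by how cleanly the genotypes separate. The highest were Sparcl1 (r = 0.984), Rogdi (0.979), Tbx3 (0.963), Epb41l4a (0.954), Ebf2 (0.952) and Avpr1a (0.949). Sparcl1 encodes a secreted matrix protein, Tbx3 a transcription factor of the cardiac conduction system and Avpr1a a vasopressin receptor. Their mean differences were smaller than that of Klhl21, at -0.26 ± 0.04 for Sparcl1, -0.29 ± 0.03 for Tbx3 and -0.50 ± 0.14 for Epb41l4a (SD, n = 3 pairs). The most opposite were Mrps27 (r = -0.991), Creb3l2 (-0.959), Crispld2 (-0.958) and Bst2 (-0.957), and Mrps27 was higher by 0.60 ± 0.03.

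None of the partners was among these genes. The correlation with Klhl21 was 0.26 for Klhl9, 0.13 for Klhl24, 0.04 for Cul3, -0.16 for Klhl31, -0.38 for Rbx1 and -0.42 for Klhl13, over 6 arrays each. Hspb7 had 0.917. These coefficients rest on 6 points and are given as descriptions.

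**Figure D3:**
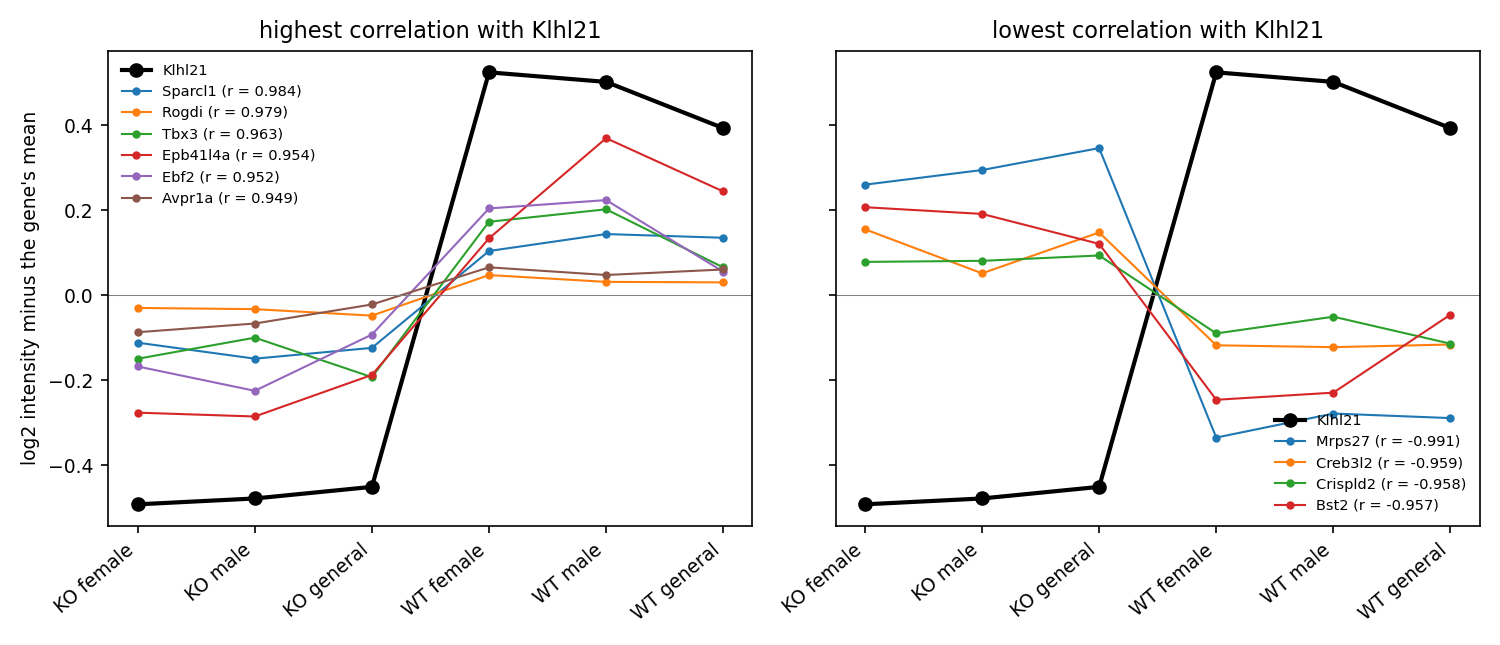
Log2 intensity minus the mean of each gene on the 6 arrays, knockouts first, for Klhl21 (black) with the 6 genes of highest (left) and the 4 of lowest correlation (right). All of the lines step between the knockout and the wild-type arrays, and the step of Klhl21 is the largest drawn.

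Klhl21 lies on chromosome 4, as do Kdm4a and Klhl9, with 402 tested genes between Klhl9 and Klhl21 in the RefSeq order. Cul3 is on chromosome 1, Klhl31 on 9, Rbx1 on 15, Klhl24 on 16 and Klhl13 on X. The 8 nearest measured genes on each side of Klhl21 were examined. Their mean differences ran between -0.23 for Acot7 and 0.17 for Rpl22, with a median of -0.0079. Of the 16, Per3 and Tnfrsf25 were lower in all 3 pairs and Rnf207 and Rpl22 higher, against 10.5% and 11.3% of all genes, and 0 passed limma's test. Per3, a clock gene near background, was the 1 neighbour whose knockout arrays all lay below the wild-type arrays, at 109, 107 and 109 in the female, male and general knockout, against 111, 123 and 125, an order that 3.06% of all genes had. All 3 knockout values and the female control were below background, and the gene was kept through its other controls alone. The immediate neighbour Phf13 gave 0.31, 0.042 and -0.088, and Nol9, on the other side, 0.16, -0.10 and -0.14.

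**Figure D4:**
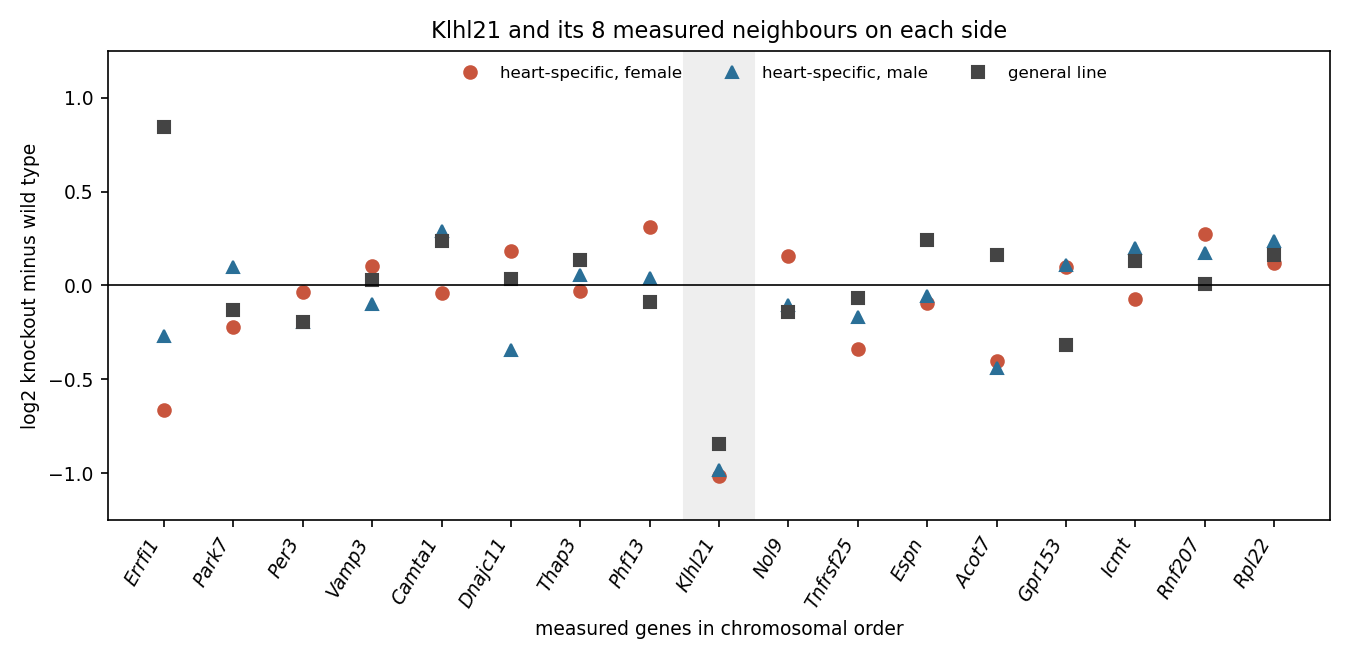
Log2 knockout minus wild type in each pair for Klhl21 (shaded) and the 8 nearest measured genes on each side, in chromosomal order. The 16 neighbours have means between -0.23 and 0.17, with single pairs between -0.66 and 0.84, both of Errfi1, and the Klhl21 symbols lie near -1.

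The rest of the pathway was followed in 10 lists of 160 genes other than the members, of which 125 were measured. In none of the comparisons did any of them pass limma's test, and over the 3 pairs 4 (3.2%) had an unadjusted p under 0.05, against 2.68% of all genes. Higher in all 3 pairs were 14 (11.2%) and lower in all 3 were 14 (11.2%), against 11.3% and 10.5% of all genes. Knockout arrays all lay above wild-type arrays for 3 (Ube2f, Kctd5 and Nfkb2) and below for 2 (Cul1 and Sec31a), which is 2.4% and 1.6% of them, against 3.14% and 3.06% of all genes. The median of the mean differences was 0.011, against 0.0036 over all genes, and the extremes were -0.46 (Rhobtb3) and 0.30 (Tnfaip1). These shares differ little from those of all genes.

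Among the genes that load Nedd8, the list that also holds Cul3 and Rbx1 had a median of 0.045. Its mean differences ran from -0.27 to 0.21. An E2 enzyme gene, Ube2f, was 0.20 ± 0.07 and an E1 subunit gene, Nae1, -0.11 ± 0.06 (SD, n = 3 pairs, as in the values that follow). The other E2 gene of the list, Ube2m, was not named on the array. The list of signalosome and exchange genes, with a median of -0.018, held Cops8 at 0.15 ± 0.12, Cops5, the Nedd8-removing subunit, at -0.076 ± 0.064 and Cand1 at -0.15 ± 0.15. The list of other cullins had a median of -0.11. Against 10.5% of all genes, 3 of its 7 were lower in all 3 pairs. Those were Cul4a at -0.24 ± 0.08, Cul2 at -0.11 ± 0.03 and Cul1 at -0.26 ± 0.20, scaffolds of other ligase classes. Cul1 had 596, 610 and 611 in the female, male and general knockout, against 611.3, 773 and 811 in the controls.

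The other BTB-Kelch genes, 29 measured of 44, had a median of 0.044. In all 3 pairs 3 were higher and 1 lower, against 11.3% and 10.5% of all genes. Klhl8 gave 0.21 ± 0.10, Klhl25 0.082 ± 0.010 and Klhl15 0.11 ± 0.10. Klhl40, which stabilises thin filament proteins in skeletal muscle, gave -0.28 ± 0.32, with 372, 342 and 416 in the female, male and general knockout, against 386, 378 and 647 in the controls. The general control alone stood high. Among the 13 measured BTB adaptors of other kinds, the median was 0.0042, with Tnfaip1 at 0.30 ± 0.08, Rhobtb2 at 0.28 ± 0.17, Kctd5 at 0.19 ± 0.07 and Rhobtb3 at -0.46 ± 0.24. Tnfaip1 is a RhoA adaptor.

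The 9 measured genes for known substrates or partners had a median of -0.069. In all 3 pairs 2 were lower, against 10.5% of all genes. Sec31a, a coat protein of secretory vesicles ubiquitinated through KLHL12 in human cells, was -0.18 ± 0.04, and Des, the desmin gene, -0.24 ± 0.16. Flnc, for filamin C and named after its values were seen, had the lowest mean of the list, -0.40 ± 0.97, with 2474, 3088 and 2305 in the female, male and general knockout, against 2355, 2607 and 6591 in the controls. The general control alone stood high for Flnc, as for Klhl40. The transcripts do not report protein levels, which these ligases act on. Mitosis genes had a median of 0.015 and were near background, with Incenp at 0.12 ± 0.13 and Cdk1 at 0.10 ± 0.14. NF-kB genes had a median of 0.022, with Nfkb2 at 0.21 ± 0.05 and Nfkbib at -0.079 ± 0.074. Nrf2 targets, the read-out of the Keap1-Cul3 ligase, had a median of 0.0038, with Gclm at -0.21 ± 0.17 and Me1 at -0.41 ± 0.63, where the male pair gave -1.13. The 11 measured muscle ligases of other classes had a median of 0.0057, and 0 of them had the same sign in all 3 pairs. Of all genes, 11.3% were higher and 10.5% lower in all 3.

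**Figure D5:**
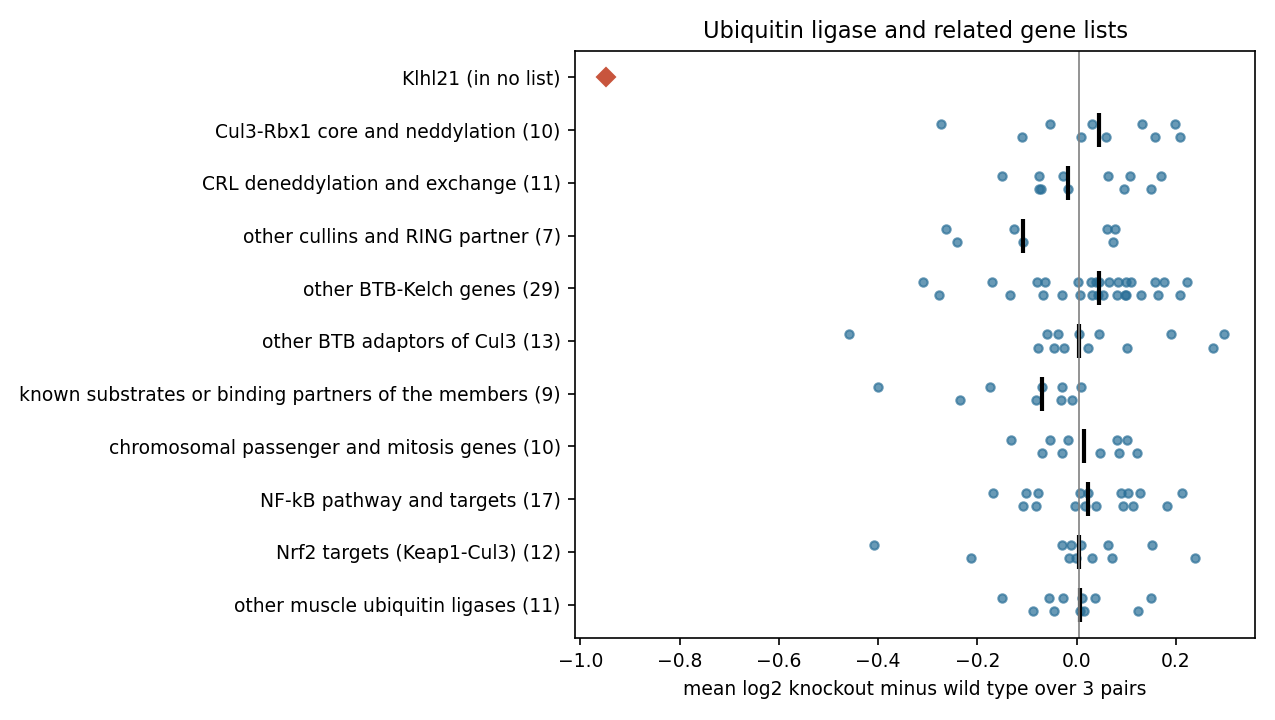
Mean log2 knockout minus wild type over 3 pairs for each measured gene of 10 lists (points, number of genes in brackets), with the list's median (black tick), the median of all genes (grey line, 0.0036) and Klhl21 (diamond). The list genes lie between -0.46 and 0.30, and Klhl21 lies at -0.95.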

How the data were processed

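The members and gene lists were chosen with earlier results of these data known. Arrays were grouped by their titles. The deposited intensities are linear, from 82.48 to 50962.29, and come, per the submitters' processing notes, from GenomeStudio, with settings not given in the sources used here. Once sorted, the 6 columns matched within 2.32%, so they were taken as already quantile-normalized, and no background subtraction was seen, which compresses differences of dim probes. A second deposited table has 12 columns whose headings match no label and were not used here.

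The deposited intensities were put on a log2 scale with nothing added. In the platform annotation 34885 probes have 1 gene, 18 have several and 10378 have none, and 34807 matched IDs of GRCm38.p6 RefSeq. Probes above the 95th percentile of 1526 receptor probes on at least 2 of 6 arrays were kept, and the brightest kept probe stood for its gene. Probe sequences were not used here, so sharing between relatives such as Klhl9 and Klhl13 was not examined. Tests used R 4.3.3 and limma 3.58.1 (lmFit, eBayes) with Benjamini-Hochberg adjustment over 11285 genes at 0.05 and 95% intervals. The pair, taken from the titles, was a block, and deviations from the genotype means correlated within pairs (r = 0.34, 0.33 and 0.35 for the general, female and male pair). A second fit had knockout terms per line, and the sex comparison had genotype as a term. The knockout comparison over all pairs was tested on simulated data. False calls in the heart-specific, line and sex comparisons were not examined in this way.

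Named genes are all members, the 6 highest and 4 lowest correlations with Klhl21 among genes other than predicted models and unnamed clones, the 8 neighbours per side, and up to 4 genes per list with the same sign in all 3 pairs. Hspb7 and Flnc were named after its values were seen. Alternatives were the mean of the kept probes of a gene, single probes, no filter, subtraction of background with an offset of 16 or 50, cyclic loess, a trended and robust eBayes, no pair block, and leaving out each pair.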

Additional observations from a re-analysis of the deposited data

Results flagged for a closer look

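The knockout difference of Klhl24 in the heart-specific line minus that in the general line was -0.66 (log2). It is listed here because the test of this difference had an unadjusted p of 0.0285. Over all genes 6.42% had an unadjusted p under 0.05, and limma's adjusted p of 0.709 did not pass. The general line has 1 pair, so the test holds no measured spread of that line. The wild-type heart of this pair had the lowest Klhl24 signal of the 6 arrays.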

How the results depend on the processing

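The Klhl21 difference stayed negative under all 11 settings, between -1.06 (background subtracted, offset 16) and -0.91. Of 297 alternative member values, 270 kept their direction, 23 reversed and 4, all of Klhl21, were flagged as moved in size. Partner values that kept their direction also changed in size. With an offset of 16, Klhl13 went from 0.088 to 0.27 over the 3 pairs and from -0.19 to -0.59 between sexes. With the mean of probes, Klhl31 went from -0.71 to -0.35 between sexes. Among the values with a test, 0 passed or lost it. Klhl21 outside the sex comparison had no test. The same holds for left-out pairs or genotypes outside the comparison over 3 pairs. Over the 3 pairs 0 genes passed under every setting run, with and without the pair as a block, and dropping the replicate block changed no call of a member. In the heart-specific pairs 2 genes passed with the mean of probes and 1 each with no filter, an offset of 50, cyclic loess and the trended eBayes, against 0. Between lines 26 passed with the mean of probes, 21 with no filter, 0 and 18 with offsets of 16 and 50, 20 with loess and 27 with the trend, against 9, and between sexes 39 with the mean of probes and 21 with the trend, against 6. Second probes reversed Klhl24 (0.052) and Rbx1 (-0.073) over the 3 pairs, Klhl9 (0.062), Cul3 (0.0055) and Rbx1 (-0.21) in heart-specific pairs, Klhl9 (0.24) and Rbx1 (-0.40) between lines, and Klhl24 (-0.083 and, on the remaining probe, -0.065), Klhl31 (0.011) and Rbx1 (-0.18) between sexes. The mean of probes reversed Klhl9 (0.051) and Rbx1 (-0.024) between lines and Klhl24 (-0.012) between sexes. Leaving out each pair, or using 1 genotype for the sexes, gave -0.25 to 0.15 for Klhl24, -0.11 to 0.088 for Cul3 and -0.021 to 0.25 for Rbx1 over pairs, -0.25 to 0.38 for Klhl31 in heart-specific pairs and -0.54 to 0.10 between lines, and between sexes -0.014 to 0.022 for Klhl21, -0.025 to 0.25 for Klhl24 and -0.056 to 0.029 for Cul3. The cause was not tested. Adjusted p-values ran from 0.197 to 0.99 for Klhl31 between sexes (8 settings) and from 0.558 to 0.919 for Klhl24 between lines (9 settings). Klhl13 and the dimmer Klhl31 probe, near background, bound what these arrays can show.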
